A study of Mus musculus with 4 samples.

Results

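The transcripts of 10 gliogenic regulators were followed in cultured mouse neural progenitors. These were the nuclear factor I genes *Nfia*, *Nfib*, *Nfic* and *Nfix*, the SOXE genes *Sox8* and *Sox9*, the zinc finger gene *Zbtb20*, the COUP-TF genes *Nr2f1* and *Nr2f2*, and the nucleosome-binding gene *Hmgn1*. They were chosen by name for their known part in the switch from neuron to glia production, with earlier results of these data known. Each symbol was matched exactly to the gene column. All 10 were listed once among the 21091 entries of each library, and all 10 were among the 12449 entries whose values averaged 1 FPKM or more across the libraries. FPKM divides a gene's fragments by transcript length and by the library's mapped fragments, so levels of different genes can be set side by side.

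RNA sequencing was performed on neural progenitors of C57BL/6 mice, dissected from embryonic brain at embryonic day 11 (E11) or 14 (E14) and grown in suspension with EGF and FGF for 3 days before lysis. At each stage, 1 library came from control cells (CTL) and 1 from cells with floxed *Stat3* alleles and Nestin-Cre to delete them (*Stat3* cKO). The Cre transgene is driven by rat *Nestin* regulatory sequence, which is active in neural progenitors. The labels call the control wild-type, while the study's animal methods describe controls as Nestin-Cre embryos with 1 floxed and 1 intact *Stat3* allele. Whether the CTL libraries carried Cre is thus not settled, and the number and sex of the embryos behind each library are not given in the sources used here. With 1 library in each group, differences have no replicate check and no p-values were computed. In whole-culture RNA, fewer cells of a type and less RNA per cell cannot be told apart.

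Neural progenitors of the embryonic brain make neurons first and glia later. In this switch, SOX9 and the NFI proteins act together on glial genes, COUP-TFs change how progenitors respond to gliogenic signals, and the JAK-STAT pathway, with STAT3 as its main effector, drives astrocyte genes once their promoters are open. ZBTB20 and HMGN proteins favour astrocyte over neuron production in the cortex, and SOX8 and SOX10 go on to serve the oligodendrocyte lineage.

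Markers of neural progenitors were abundant in all 4 libraries, those of neurons were present throughout, and those of mesenchyme were abundant at E11. The 8 radial glia markers summed to between 1463 and 8022 FPKM, whereas the 7 microglia markers summed to between 0.611 and 5.74 FPKM and the 6 endothelial markers to between 1.08 and 4.70. The 10 neuron markers summed to 803 (CTL) and 835 FPKM (*Stat3* cKO) at E11 and to 1261 and 1040 at E14, where their median genotype log2 ratio was −0.32. The 8 mesenchyme and pericyte markers summed to 1327 FPKM in CTL and 1172 in *Stat3* cKO at E11, then to 16.5 and 10.8 at E14, so both E11 cultures carried these transcripts and both E14 cultures had little of them. Of 6 erythroid markers, 2 were listed singly, and they summed to at most 0.430 FPKM. The E14 libraries also differed in sex-linked transcripts: *Ddx3y*, a Y-linked gene, had 0.0569 FPKM in CTL against 25.1 in *Stat3* cKO at E14, and *Xist*, which is transcribed from the inactive X chromosome, had 13.6 and 0.0370. Genotype at E14 cannot be told apart from this difference. *Ddx3y* was listed at 0 in both E11 libraries, where *Xist* had 46.9 and 39.7 FPKM. Stage in *Stat3* cKO, and the difference of the stage change between genotypes, cannot be told apart from the sex-linked difference either. Relative depth, read from the smallest values, lay between 0.835 and 1.08 times that of E14 *Stat3* cKO, and between 330 and 1589 entries were at 0. The targeted gene *Stat3* had 7.41 FPKM in E11 CTL and 6.74 in E11 *Stat3* cKO. At E14 the CTL value was 27.6 FPKM and the *Stat3* cKO value 9.55. The *Stat3* cKO level was thus 0.911 of CTL at E11 and 0.346 of CTL at E14. The E11 value does not check the genotype label, and E11 *Stat3* cKO means here the library so labelled. The paper places *Stat3* deletion in these mice by E14. How complete it was in the E11 culture is not given in the sources used here.

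The levels of the 10 regulators spread over a wide range, and more of them reached 2-fold between stages than between genotypes. *Hmgn1* was the most abundant of them in every library, with at least 361 FPKM, and *Nr2f1* was next except in E14 CTL, where *Nfib* stood above it. *Nfic* was the lowest in 3 libraries, down to 0.582 FPKM, and *Nfix* was the lowest in E11 *Stat3* cKO. *Sox8*, *Nfix* and *Nfib* exceeded their E11 levels by at least 2-fold at E14 in both genotypes, and *Nr2f2* and *Nfic* were at least 2-fold lower. Between genotypes, *Nfix* at E11 was the single member that reached 2-fold. *Sox8* and *Nr2f1* at E14 lay between 1.5-fold and 2-fold higher in *Stat3* cKO (5.82% of all genes were at least 1.5-fold higher). Over all genes, 2-fold was likewise reached more often between stages (14.6% higher and 12.5% lower in CTL, 10.1% and 11.7% in *Stat3* cKO). Between genotypes the shares were 0.209% higher and 1.12% lower at E11, and 1.85% and 1.69% at E14.

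**Figure D1:**
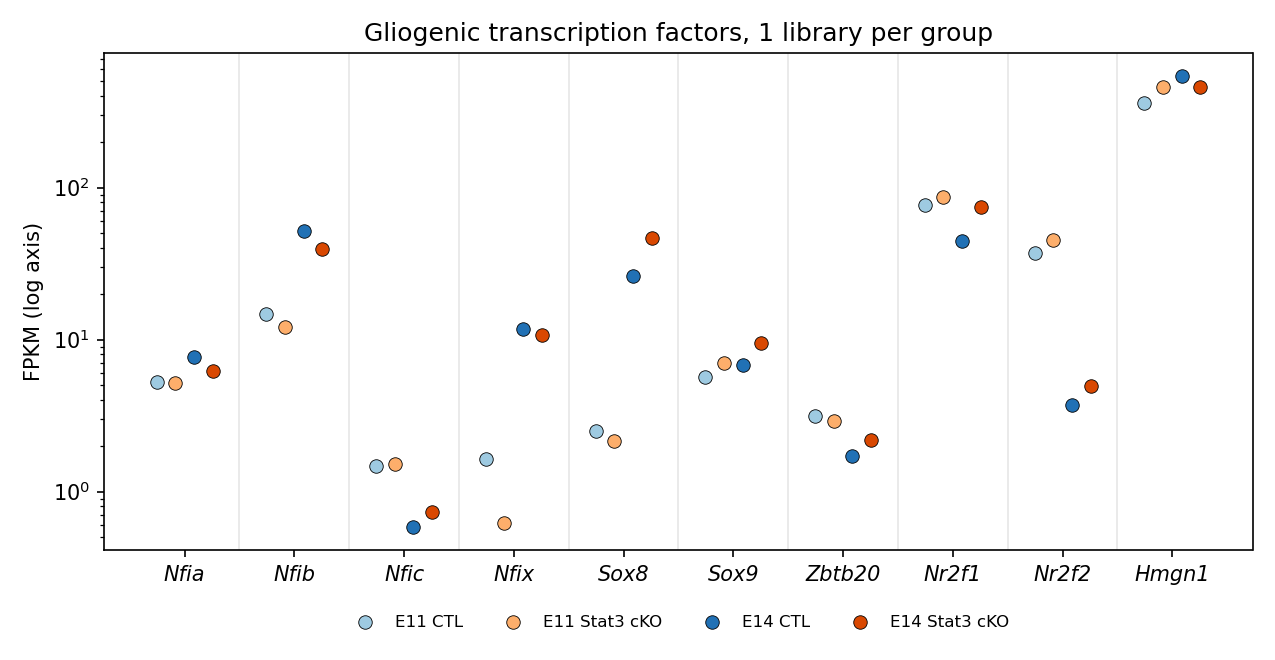
FPKM of the 10 regulators on a log axis, with 1 point for each library (light colours E11, dark colours E14, blue CTL, orange *Stat3* cKO). The E14 points of *Sox8* and *Nfix* stand far above their E11 points, those of *Nr2f2* stand far below, and *Sox9* and *Nfia* keep all 4 points within 5.18 to 9.47 FPKM.

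To place these genes on the genome, the 250 bases before the annotated start sites were read from RefSeq on GRCm38.p6, a later build than mm8 or mm9, the builds in the submitters' processing notes. Start sites were given for 8 of the 10 regulators, 12 sites in all, and *Nfib* and *Sox9* had none. Each stretch was searched on both strands for the STAT palindrome TTCNNNGAA, the NFI half-site TTGGC and the nuclear receptor half-site AGGTCA. Over 32851 promoter stretches of the same length, 7.02% held the first, 41.5% the second and 14.0% the third. These letters occur often, so a match is a description of sequence and not of binding. The stretches of the 3 genes on which the results turn are printed 5′ to 3′ on the gene's strand, with matches in capitals. *Nfix* is shown at its second start site, the only one of the 12 with all 3 motifs, and *Sox8* and *Nr2f2* are the genes with the highest and lowest stage ratios.
Nfix, start site 2, chr8:84775829-84776078, minus strand: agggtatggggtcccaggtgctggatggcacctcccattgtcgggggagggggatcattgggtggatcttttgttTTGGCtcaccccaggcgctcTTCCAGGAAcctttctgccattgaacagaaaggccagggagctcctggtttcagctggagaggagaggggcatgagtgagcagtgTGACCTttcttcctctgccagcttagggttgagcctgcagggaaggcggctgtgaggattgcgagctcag
Sox8, chr17:25570687-25570936, minus strand: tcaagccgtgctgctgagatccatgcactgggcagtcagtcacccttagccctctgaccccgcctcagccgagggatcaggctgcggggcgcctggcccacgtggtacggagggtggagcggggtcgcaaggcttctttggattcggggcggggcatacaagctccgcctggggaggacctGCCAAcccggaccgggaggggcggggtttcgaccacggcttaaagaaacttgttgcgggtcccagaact
Nr2f2, chr7:70366747-70366996, minus strand: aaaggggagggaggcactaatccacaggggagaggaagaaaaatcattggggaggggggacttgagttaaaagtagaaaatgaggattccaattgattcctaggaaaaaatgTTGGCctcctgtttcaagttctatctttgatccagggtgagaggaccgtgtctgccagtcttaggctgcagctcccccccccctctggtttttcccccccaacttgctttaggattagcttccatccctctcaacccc

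In the *Nfix* stretch the STAT match lay 155 to 147 bases before the start site and the NFI half-site 175 to 171 bases before it. The nuclear receptor half-site, read on the other strand, lay 70 to 65 bases before it. *Sox8* held an NFI half-site 69 to 65 bases before its start and *Nr2f2* held one 138 to 134 bases before its start. Among the other start sites, *Nfic* held a STAT match 97 to 89 bases before its start, *Hmgn1* an NFI half-site, and *Nfix* sites 3 and 4 a nuclear receptor half-site and an NFI half-site. *Nfix* start site 1, both *Nr2f1* start sites and those of *Nfia* and *Zbtb20* held none of the 3 motifs in this window.

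The 4 NFI genes encode factors that bind the same palindrome as dimers. *Nfib*, on chromosome 4 (listed from 81936076 to 82151212), is required for glial development in the forebrain. It stood at 14.8 (CTL) and 12.2 FPKM (*Stat3* cKO) at E11, and at 51.7 and 39.3 FPKM at E14. Both E14 values were above both E11 values, by 3.50-fold in CTL and 3.23-fold in *Stat3* cKO. Scaled to the summed FPKM of each library, the *Stat3* cKO difference was 0.84 on the log2 scale, short of 2-fold. The *Stat3* cKO library had the lower value at both stages, at 0.823 times CTL at E11 and 0.760 times CTL at E14, short of 1.5-fold.

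*Nfix*, a regulator of the timing of stem cell differentiation on chromosome 8 (87231497 to 87324239), stood at 1.65 (CTL) and 0.622 FPKM (*Stat3* cKO) at E11, and at 11.8 and 10.8 FPKM at E14. It was low at E11 and abundant at E14 in both genotypes, with a stage ratio of 7.15 for CTL against 17.3 for *Stat3* cKO. The 2 stage ratios differed by 1.28 on the log2 scale, which came from the E11 values: the *Stat3* cKO level was 2.65-fold below that of CTL at E11 and 1.09-fold below it at E14, where the log2 ratio was 0.024 under upper-quartile scaling. Both E11 values are low, and how many fragments stand behind them is unknown. With 1 FPKM added to each value the E11 difference was −0.71 on the log2 scale, short of 2-fold. The difference between the stage ratios was then 0.59, and it was 0.97 under summed-FPKM scaling.

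*Nfia*, which opens the gliogenic phase in the developing spinal cord together with SOX9, lies on chromosome 4 (97234565 to 97785567). It stood at 5.25 (CTL) and 5.18 FPKM (*Stat3* cKO) at E11, and at 7.65 and 6.22 FPKM at E14. Its values stayed close together: the log2 ratio between stages was 0.55 in CTL and 0.26 in *Stat3* cKO, and that between genotypes was −0.019 at E11 and −0.30 at E14. The entry *E130114P18Rik* shares the listed locus of *Nfia*, on the opposite strand in GENCODE M21. It had 12.1, 13.5, 54.7 and 40.1 FPKM in the same order, 4.51-fold higher at E14 in CTL and 2.97-fold in *Stat3* cKO. Whether the libraries kept strand is not given in the sources used here, and without strand the reads of such neighbours cannot be told apart where they overlap.

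*Nfic*, best known for tooth root formation, lies on chromosome 10 (80858935 to 80889918). It stood at 1.48 (CTL) and 1.52 FPKM (*Stat3* cKO) at E11, and at 0.582 and 0.731 FPKM at E14. It ran opposite to *Nfib* and *Nfix*, 2.55-fold lower at E14 in CTL and 2.08-fold lower in *Stat3* cKO. These calls depend on the low values: with 1 FPKM added, the log2 differences were −0.65 in CTL and −0.54 in *Stat3* cKO, both short of 2-fold, and with 0.1 FPKM added the *Stat3* cKO one was −0.96.

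The summed level of the NFI family was 23.1 (CTL) and 19.5 FPKM (*Stat3* cKO) at E11, then 71.7 and 57.0 FPKM at E14. *Nfib* made up most of it in every library, from 62.4% to 72.1%. The share of *Nfia* was 22.7% in E11 CTL and 10.7% in E14 CTL, while that of *Nfix* was 7.11% and 16.4%. In *Stat3* cKO the share of *Nfia* was 26.6% at E11 and 10.9% at E14, and that of *Nfix* 3.19% and 18.9%.

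**Figure D2:**
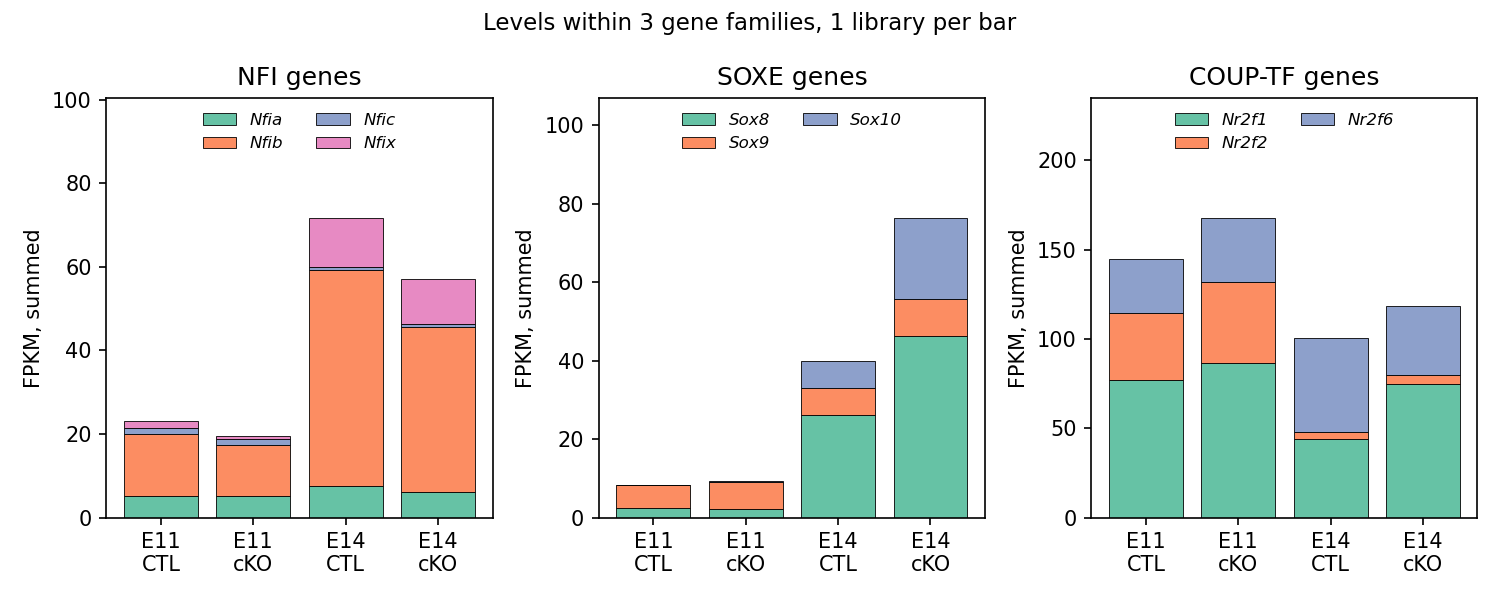
Summed FPKM of the NFI, SOXE and COUP-TF genes, 1 bar for each library, stacked by gene, on linear axes that start at 0. The NFI and SOXE bars are taller at E14, with *Nfib* and *Sox8* the largest pieces there, and the COUP-TF bars lose nearly all of *Nr2f2* at E14.

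The SOXE genes encode closely related HMG-box factors of neural stem cells and glia. *Sox8*, on chromosome 17 (25702837 to 25707631), stood at 2.52 (CTL) and 2.17 FPKM (*Stat3* cKO) at E11, and at 26.3 and 46.3 FPKM at E14. The E14 values were far above the E11 values, by 10.4-fold in CTL and 21.4-fold in *Stat3* cKO. The 2 E11 values lay close together, whereas the E14 *Stat3* cKO value was 1.76-fold the E14 CTL value. The stage difference was larger in *Stat3* cKO by 1.04 on the log2 scale. It was larger by 0.95 with 1 FPKM added to each value and by 0.73 under summed-FPKM scaling.

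*Sox9*, which keeps neural stem cells and starts gliogenesis, lies on chromosome 11 (112643523 to 112649071). It stood at 5.68 (CTL) and 6.98 FPKM (*Stat3* cKO) at E11, and at 6.83 and 9.47 FPKM at E14. The *Stat3* cKO value was the higher one at both stages, by 1.23-fold at E11 and 1.39-fold at E14, short of 1.5-fold. The log2 ratios between stages were 0.27 in CTL and 0.44 in *Stat3* cKO, so *Sox9* differed little where *Sox8* differed most. Scaled to the summed FPKM of each library, the stage ratios of *Sox9* turned to −0.29 and −0.42 on the log2 scale, and those of *Nfia* to −0.010 and −0.59.

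*Sox10*, the third SOXE gene and a driver of oligodendrocyte differentiation, was not among the 10 and is given for the family. It stood at 0.215 (CTL) and 0.134 FPKM (*Stat3* cKO) at E11, and at 6.74 and 20.6 FPKM at E14. Its E14 value was 3.05-fold higher in *Stat3* cKO, in the direction of *Sox8*. *Sox9* took 67.5% and 75.2% of the summed SOXE level at E11, in CTL and *Stat3* cKO, and 17.1% and 12.4% at E14. The ratio of *Sox8* to *Sox9* was 0.443 and 0.311 at E11 and 3.85 and 4.89 at E14, so the more abundant of the pair changed with stage in both genotypes.

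Markers of the oligodendrocyte lineage were read beside *Sox8*. Their sum over 8 genes was 75.9 (CTL) and 97.1 FPKM (*Stat3* cKO) at E11, then 567 and 551 FPKM at E14, and 5 of the 8 were at least 2-fold higher at E14 in each genotype (14.6% of all genes in CTL and 10.1% in *Stat3* cKO). *Nkx2-2* was at least 2-fold lower in each (5.02-fold in CTL), and *Pdgfra* was 1.48-fold lower in CTL and 1.12-fold lower in *Stat3* cKO. At E14, 3 of the 8 had a genotype ratio of 2 or more (1.85% of all genes), among them *Sox10* itself and the myelin gene *Mbp* (2.82 against 6.75 FPKM). *Olig1* (345 against 311) and *Olig2* (168 against 134) had the lower value in *Stat3* cKO, and so did the sum of the 8. The median log2 genotype ratio of the 8 at E14 was 0.59, against −0.079 for all genes. Of 11 astrocyte markers with a ratio, 7 were at least 2-fold higher at E14 in CTL (14.6% of all genes) and 8 in *Stat3* cKO (10.1%). *Gja1* and *Slc1a2* were at least 2-fold lower in CTL (−3.40 and −1.14 on the log2 scale), and *Gja1* in *Stat3* cKO (−3.47). Of all genes, 12.5% were lower in CTL and 11.7% in *Stat3* cKO. Between genotypes at E14, 3 of the 11, *Aqp4*, *S100b* and *Ndrg2*, reached 2-fold upward in *Stat3* cKO (1.85% of all genes) and 1, *Cd44* (11.0 against 4.23 FPKM), was lower (1.69%). The part of such cells in the *Sox8* values was not tested.

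*Zbtb20*, a zinc finger repressor of hippocampal and astrocyte development, lies on chromosome 16 (43247396 to 43619236). It stood at 3.12 (CTL) and 2.94 FPKM (*Stat3* cKO) at E11, and at 1.71 and 2.18 FPKM at E14. Both E14 values were below both E11 values, by 1.83-fold in CTL and 1.34-fold in *Stat3* cKO, which did not reach 2-fold. The stage difference in CTL passed 2-fold under each of the 3 other scalings, at −1.09 to −1.43 on the log2 scale, and that in *Stat3* cKO under summed-FPKM scaling, at −1.29. The opposite-strand entry *Gm15713* at the same listed locus had at most 0.171 FPKM.

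The COUP-TFs are orphan nuclear receptors. *Nr2f2* (COUP-TFII), on chromosome 7 (77496835 to 77556032), stood at 37.0 (CTL) and 45.2 FPKM (*Stat3* cKO) at E11, and at 3.72 and 4.97 FPKM at E14. Its E14 values were 9.94-fold lower in CTL and 9.09-fold lower in *Stat3* cKO, the largest difference downward among the 10. Genotype differed far less, at 1.22-fold higher in *Stat3* cKO at E11 and 1.34-fold at E14. The opposite-strand entry *B130024G19Rik*, at the same listed locus, had 5.58, 6.01, 0.346 and 0.453 FPKM in the same order and was 16.1-fold lower at E14 in CTL. This listed locus spans 59198 bases, against 14801 for *Nr2f2* itself in RefSeq on GRCm38.

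*Nr2f2* is also a gene of mesenchymal and venous cells. All 7 mesenchyme and pericyte markers with a ratio were at least 2-fold lower at E14 in both genotypes (12.5% of all genes in CTL and 11.7% in *Stat3* cKO), with a median of −6.46 on the log2 scale in CTL and −6.99 in *Stat3* cKO, against −3.31 and −3.18 for *Nr2f2*. *Col1a2*, a collagen gene of fibroblasts, had 227 FPKM (CTL) and 215 (*Stat3* cKO) at E11, then 2.59 and 1.87 at E14. *Twist1*, a mesenchymal regulator, had 42, 35.2, 0.450 and 0.0353 FPKM. Of the 6 endothelial markers, 1 had a ratio, *Kdr*, at −3.42 in CTL and −3.12 in *Stat3* cKO on the log2 scale between stages, from levels of at most 2.28 FPKM. The part of these cells in the *Nr2f2* values was not tested.

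**Figure D3:**
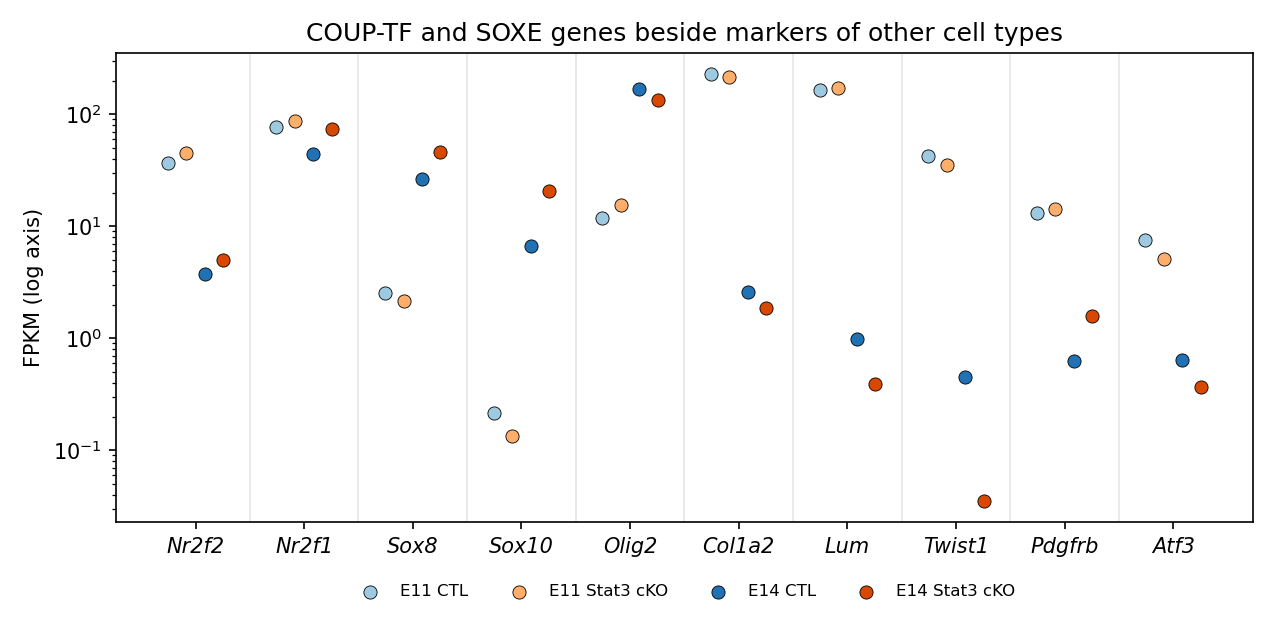
FPKM on a log axis of *Nr2f2*, *Nr2f1*, *Sox8*, the oligodendrocyte-lineage genes *Sox10* and *Olig2*, the mesenchyme and pericyte markers *Col1a2*, *Lum*, *Twist1* and *Pdgfrb*, and *Atf3*, with 1 point for each library. *Nr2f2* has its E11 points high and its E14 points low, as the mesenchymal markers do over a wider range. By stage *Sox8* has the reverse order, as *Sox10* and *Olig2* do. *Sox10* and *Olig2* were picked from the 8 oligodendrocyte-lineage markers. Of those not shown, *Nkx2-2* and *Pdgfra* were lower at E14 in both genotypes, and *Mbp* in CTL.

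*Nr2f1* (COUP-TFI), which patterns the cortex along with its role in gliogenesis, lies on chromosome 13 (78328235 to 78375825). It stood at 77.3 (CTL) and 86.5 FPKM (*Stat3* cKO) at E11, and at 44.2 and 74.7 FPKM at E14. E14 CTL was the low library, and the other 3 lay within 74.7 to 86.5 FPKM. The E14 value was 1.69-fold higher in *Stat3* cKO, against 1.12-fold at E11. The stage ratio was 0.572 for CTL against 0.863 for *Stat3* cKO. In CTL it was 1.75-fold lower at E14 as deposited, and it passed 2-fold under each of the 3 other scalings, at −1.02 to −1.36 on the log2 scale. In *Stat3* cKO it passed 2-fold under summed-FPKM scaling, at −1.07. The opposite-strand entry *A830082K12Rik* at the same listed locus had 8.45, 8.46, 6.78 and 6.70 FPKM, with a genotype ratio of 0.989 at E14. This listed locus spans 47591 bases, against 9903 for *Nr2f1* itself in RefSeq on GRCm38.

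The ratio of *Nr2f1* to *Nr2f2* was 2.09 (CTL) and 1.91 (*Stat3* cKO) at E11, and 11.9 and 15.0 at E14. *Nr2f6*, a more distant family member, had 30.4, 36.1, 52.6 and 38.8 FPKM in the same order. It was the largest part of the family in E14 CTL, at 52.3%, and *Nr2f1* was the largest in the other 3 libraries, at 51.6% to 63.1%.

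Regional genes were read beside the COUP-TFs, since their levels differ between parts of the forebrain. Of 6 ventral forebrain genes, 3 were at least 2-fold higher in E14 *Stat3* cKO than in E14 CTL: *Dlx2* (0.613 against 1.55 FPKM), *Nkx2-1* (1.16 against 2.65) and *Gsx2* (2.56 against 6.05), against 1.85% of all genes. *Dlx5* had the lower value in *Stat3* cKO (0.645 against 0.489), and *Dlx1* and *Lhx6* were higher by less than 2-fold. No gene of the 6 on the dorsal forebrain list reached 2-fold there in either direction, and they summed to 106 FPKM in both libraries. The part of regional composition in the *Nr2f1* and *Sox8* values at E14 was not tested.

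*Hmgn1* encodes a small protein that binds nucleosomes and loosens chromatin, and lies on chromosome 16 (96343194 to 96349332). It stood at 361 (CTL) and 458 FPKM (*Stat3* cKO) at E11, and at 545 and 459 FPKM at E14. The *Stat3* cKO value was 1.27-fold higher at E11 and 1.19-fold lower at E14, so the 2 *Stat3* cKO values nearly coincided, with a log2 ratio between stages of 0.0021, while that in CTL was 0.59. Scaled to the summed FPKM of each library, these were −0.86 in *Stat3* cKO and 0.038 in CTL, so which pair coincides depends on the scaling. In the same order *Hmgn2* had 271, 446, 469 and 497 FPKM and *Hmgn3* had 45.7, 63.9, 76.7 and 74.4. For all 3 the lowest value was that of E11 CTL. *Hmgn5*, the X-linked member of the family, had 1.91, 4.13, 1.49 and 1.70 FPKM, 2.16-fold higher in *Stat3* cKO at E11. HMGN genes have many processed copies in the genome, and how reads shared with them were assigned is not given in the sources used here, so these levels are uncertain.

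Comparing genotypes over all 10, at E11 no member was 2-fold higher (0.209% of the 12430 genes with a ratio were) and 1 was 2-fold lower, *Nfix* (1.12% of all genes). At 1.5-fold, no member was higher (2.18% of all genes) and again *Nfix* alone was lower (3.66%). The median log2 ratio of the members was 0.0095, against 0.059 for all genes. At E14 no member was 2-fold higher (1.85% of all genes) or 2-fold lower (1.69%). At 1.5-fold, *Sox8* and *Nr2f1* were higher (5.82% of all genes) and no member was lower (7.67%). The median was 0.34, against −0.079 for all genes, and 6 of the 10 lay above the all-gene median. It was 0.18 with a pseudocount of 1 and 0.14 with a minimum of 5 FPKM. These counts are too small to read as a property of the 10 genes together.

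**Figure D4:**
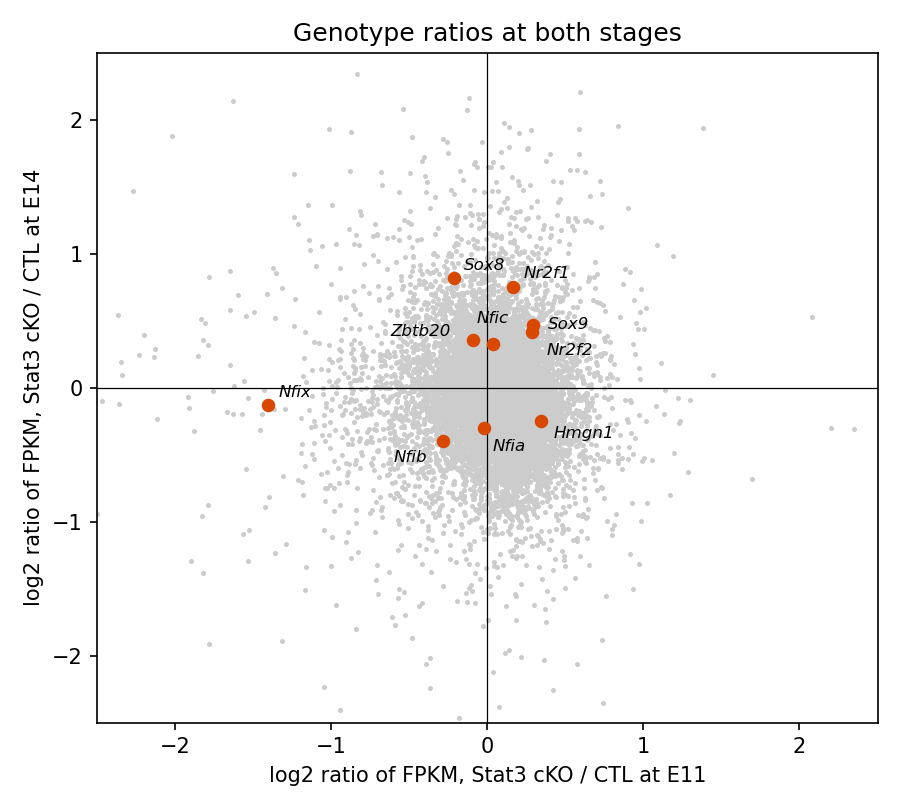
Log2 genotype ratio, *Stat3* cKO over CTL, at E11 (horizontal) and E14 (vertical) for all genes with a ratio at both stages (grey) and the 10 regulators (orange, named); 41 genes lie outside the axes. *Nfix* stands to the left at −1.40 and *Sox8* and *Nr2f1* stand highest, at 0.82 and 0.76, while the other 7 lie within 0.5 of 0 on both axes.

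Comparing stages, 3 of the 10 were 2-fold higher at E14 in CTL, against 14.6% of all genes, and 2 were 2-fold lower, against 12.5%. In *Stat3* cKO 3 were higher, against 10.1% of the 12426 genes with a ratio, and 2 were lower, against 11.7%. The median of the members was 0.41 in CTL (0.21 for all genes) and 0.13 in *Stat3* cKO (0.058 for all genes). The sign of both depends on scaling: it was −0.15 in CTL under summed-FPKM scaling, and in *Stat3* cKO −0.72 under summed-FPKM and −0.015 under upper-quartile scaling. The order of the stage log2 ratios ran in CTL from *Sox8* (3.38), *Nfix* (2.84) and *Nfib* (1.81) down to *Nfic* (−1.35) and *Nr2f2* (−3.31), and in *Stat3* cKO from *Sox8* (4.42), *Nfix* (4.11) and *Nfib* (1.69) down to *Nfic* (−1.06) and *Nr2f2* (−3.18). In CTL, 0.660% of all genes had a higher stage ratio than *Sox8* and 1.21% a higher one than *Nfix*. For *Nr2f2*, 3.10% of all genes had a lower one. With each library scaled to its summed FPKM, the split in *Stat3* cKO was 2 higher and 4 lower, and in CTL 3 higher and 4 lower.

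**Figure D5:**
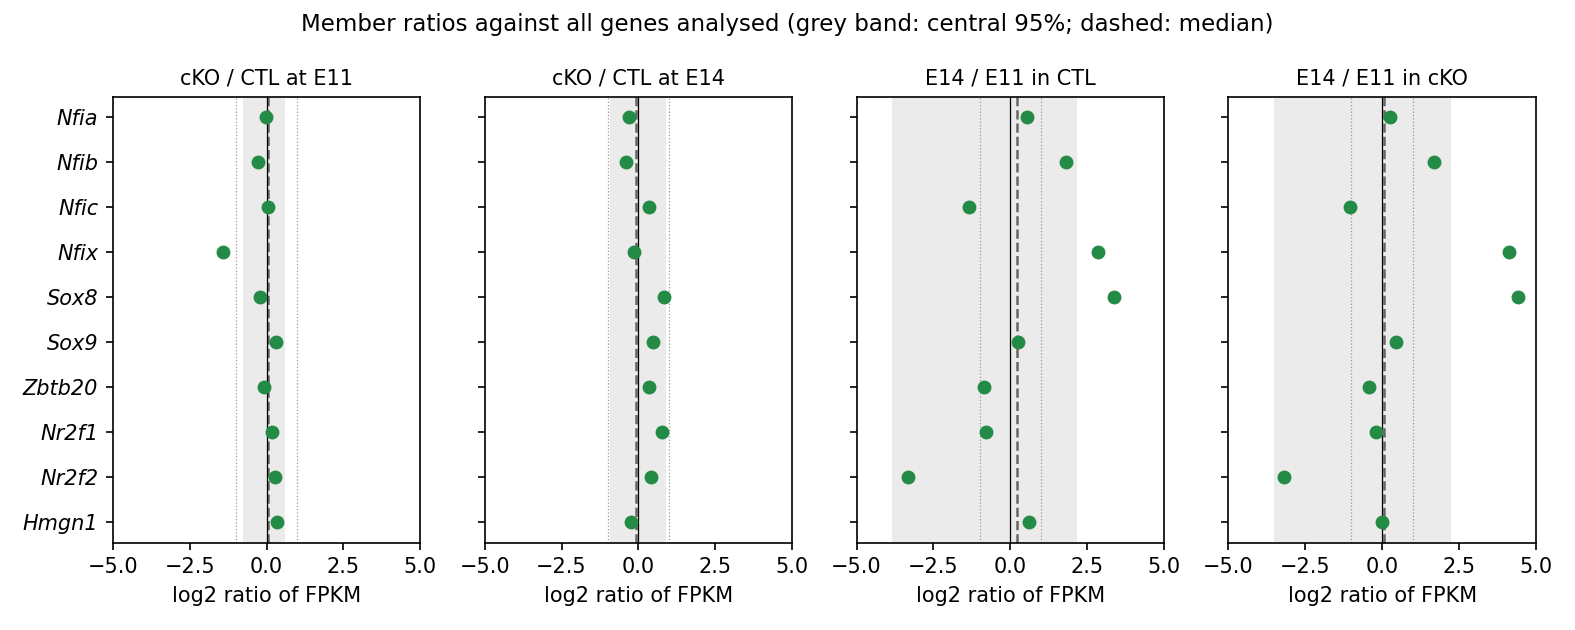
Log2 ratio of each regulator in the 4 comparisons (points), with the central 95% of all genes (grey band), the all-gene median (dashed) and 2-fold (dotted). *Nfix* falls outside the band at E11, and *Nfix* and *Sox8* fall outside it in both stage comparisons.

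Regulators that act with or against these factors were read from a list of 24 genes, of which 22 had a ratio. None reached 2-fold between genotypes at E11, where 0.209% of all genes were higher and 1.12% lower. At E14, 2 were higher in *Stat3* cKO, the Notch target *Hes5* (124 against 294 FPKM) and *Sox10*, and 3 were lower, *Stat3*, the ETS factor *Etv5* (51.5 against 21.2) and *Hmga2* (2.22 against 0.927), a chromatin factor of early progenitors. Of all genes, 1.85% were higher and 1.69% lower at this threshold. The median was −0.051, against −0.079 for all genes. Between 1.5-fold and 2-fold, *Notch1* (1.69-fold), *Neurog2* (1.60-fold) and *Sox21* (1.85-fold) were higher in E14 *Stat3* cKO. *Etv4* (1.56-fold), *Atf3* (1.76-fold) and *Hes1* (1.59-fold), a Notch target that binds JAK and STAT3, were lower.

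By stage, 6 of the 22 were at least 2-fold higher at E14 in CTL: *Stat3*, *Etv4*, *Etv5*, *Olig2*, *Sox10* and *Sox21*. In *Stat3* cKO the 6 were *Hes5*, *Etv4*, *Etv5*, *Olig2*, *Sox10* and *Sox21*. In each genotype 8 were lower, among them the proneural genes *Neurog1* and *Neurog2*, the BMP targets *Id1* and *Id3*, the stress-response factor *Atf3*, and the early-progenitor genes *Hmga2* and *Lin28b*. The all-gene shares were 14.6% higher and 12.5% lower in CTL, and 10.1% and 11.7% in *Stat3* cKO. *Neurog1* had 5.41 FPKM (CTL) and 6.57 (*Stat3* cKO) at E11, then 0.240 and 0.318 at E14. *Lin28b* had 3.48, 4.58, 0.503 and 0.472 FPKM in the same order. The 22 genes had a median of −0.091 in the CTL comparison and −0.086 in that of *Stat3* cKO. *Smad1*, *Lhx2*, *Ezh2* and *Dnmt1* stayed under 2-fold in all 4 comparisons, and *Runx2* and *Lin28a* had means under 1 FPKM.

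Genes known as targets of NFIA and SOX9, or as glial genes with NFI sites, were read from a list of 10, of which 9 had a ratio. At E14, 4 of the 9 had a ratio of *Stat3* cKO over CTL of 2 or more (1.85% of all genes). *Apcdd1*, induced by SOX9 and NFIA together in early glia, had 33.9 FPKM (CTL) and 34.6 (*Stat3* cKO) at E11, then 11.4 and 31.5 at E14, and *Mmd2*, another joint target, had 6.20, 4.80, 84.0 and 213 in the same order. The astrocyte genes *S100b* (2.37-fold) and *Aqp4* (2.29-fold), counted above among the astrocyte markers, were the other 2, and the target and astrocyte lists share further genes, among them *Aldh1l1*, *Slc1a3*, *Sparcl1* and *Gfap*. *Aldh1l1* was 1.74-fold higher in E14 *Stat3* cKO, and *Fabp7*, *Slc1a3*, *Zcchc24* and *Sparcl1* lay within 1.5-fold. *Gfap*, an astrocyte filament gene that STAT3 activates, averaged under 1 FPKM and was given no ratio. It had 0.124 and 0.0625 FPKM at E11 and 0.901 and 0.186 at E14, in CTL and *Stat3* cKO, with the lower value in *Stat3* cKO at both stages. The median of the 9 was 0.80, against −0.079 for all genes.

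At E11, 1 of the 9 was at least 2-fold lower in *Stat3* cKO, *Sparcl1* (78.1 against 37.8 FPKM; 1.12% of all genes), and none was higher (0.209%). By stage, *Mmd2*, *S100b*, *Fabp7*, *Aqp4* and *Aldh1l1* were at least 2-fold higher at E14 in CTL (14.6% of all genes), and the same 5 and *Slc1a3* in *Stat3* cKO (10.1%). *Apcdd1* was 2.98-fold lower at E14 in CTL and 1.10-fold lower in *Stat3* cKO. *Fabp7*, a fatty acid binding protein of radial glia, had 516, 594, 5245 and 5929 FPKM and was the most abundant of the 10. In E14 *Stat3* cKO, *Mmd2* was 2.53-fold and *Apcdd1* 2.78-fold higher. As deposited, *Nfia* and *Sox9* themselves stayed within 1.5-fold between stages and between genotypes, as given above. They just passed 1.5-fold in 2 rescaled comparisons. These were *Sox9* between genotypes at E14 (0.63 on the log2 scale, upper quartile) and *Nfia* between stages in *Stat3* cKO (−0.59, summed FPKM). A link between these values was not tested.

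Genes with the nearest profile over the 4 libraries were found by the distance between log2(FPKM + 1) values, each gene centred on its own mean, among 9215 genes that averaged 5 FPKM or more. For *Nfia* they were *Cept1*, *Dda1* and *Btbd1*, at distances of 0.022 to 0.027. For *Sox9* they were *Rnf113a1*, *Ptms* and *Rgs12*, at 0.034 to 0.070, and for *Nr2f1* *Aldh2*, *Abcd2* and *Rhpn1*, at 0.052 to 0.074. *Aldh2* had 32.9 FPKM (CTL) and 38.0 (*Stat3* cKO) at E11, then 18.4 and 31.1 at E14, with the low value in E14 CTL as for *Nr2f1*.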

How the data were processed

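Each library is 1 group, set by the stage and genotype in the labels, and all 4 were used. The authors aligned reads with TopHat and estimated transcript levels with Cufflinks, and they deposited FPKM values. The submitters' processing notes name Bowtie 0.12.2 and the builds mm8 and mm9 without a role, so loci are given as listed. Fragment counts are unknown, and depth was compared only in relative terms from values under 0.1 FPKM. Genes that averaged 1 FPKM or more across the 4 libraries were compared by plain ratios of the deposited values, with no pseudocount, and a ratio needed values above 0 in both libraries. Calls were made at 2-fold, and at 1.5-fold between genotypes. No test between groups was run: with 1 library in each, the only residual of an additive model would be the difference of the genotype effect between stages, which is itself a result. Lists were summarised by counts and medians beside those of all genes. Alternatives were pseudocounts of 0.1 and 1, 3 scalings (all-gene median set to 0, upper quartile, summed FPKM), a minimum of 5 FPKM or none, and thresholds of 1.5 and 3. The 2-fold calls, the search for nearest profiles and the relative depth were tested on simulated data, and the other steps were not. The software was numpy 2.4.6, pandas 2.3.3 and matplotlib 3.10.9, run in Python 3.11.15. Promoters came from RefSeq on GRCm38.p6, strands from GENCODE M21.

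The members and lists were chosen with earlier results of these data known. By rule, every member, its paralogues, *Stat3*, the genes of the regulator and target lists, and the 3 nearest profiles of *Nfia*, *Sox9* and *Nr2f1* are named, apart from a few genes that are not reported here. Sex-linked genes, the marker and regional genes and the opposite-strand entries given singly were chosen after their values were seen.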

Additional observations from a re-analysis of the deposited data

Results flagged for a closer look

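For 3 of the 10 regulators the genotype difference had opposite signs at the 2 stages, with 1 library behind each value, and the difference between stages was not tested. Of all genes, 61.8% had a genotype ratio above 1 at E11 and 39.9% at E14, and the share that changed sign was not counted. The count of 3 is thus not read as a property of the 10 genes. *Sox8* had a log2 ratio of *Stat3* cKO to CTL of −0.22 at E11 and 0.82 at E14, a difference of 1.04. *Zbtb20* had −0.090 and 0.35, a difference of 0.44. *Hmgn1* had 0.34 and −0.25, a difference of −0.59. Over all genes this difference had a median of −0.12, and its central 95% ran from −1.09 to 1.12, so all 3 lie inside it. *Nfix*, with the lower value in *Stat3* cKO at both stages, had a difference of 1.28, outside that range. The E11 value of *Sox8* was 0.018 and that of *Zbtb20* was 0.14 with libraries scaled to their summed FPKM, and the signs then no longer differed. The set of genes with opposite signs depends on scaling: *Nfia* (0.21 and −0.37) joined it under summed FPKM, *Nfic* (−0.020 and 0.41) with the all-gene median set to 0, and *Nfic* (−0.031 and 0.48) and *Nfix* (−1.47 and 0.024) under upper-quartile scaling.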

How the results depend on the processing

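Of 250 single-gene values under 5 alternatives (2 pseudocounts and 3 scalings), 214 kept their sign and their side of 2-fold. Another 19, all under 2-fold, changed sign, 9 no longer reached 2-fold, 8 newly reached it, and 0 of those at 2-fold changed sign. Upper-quartile scaling moved the all-gene median by −0.37 in the CTL stage comparison, and scaling to the summed FPKM by −0.56 there and −0.86 in *Stat3* cKO. The members' median between genotypes at E11 was −0.049 with the all-gene median set to 0 and −0.059 under upper-quartile scaling. Between stages it was −0.15 in CTL under summed scaling. In *Stat3* cKO it was −0.015 under upper-quartile and −0.72 under summed scaling. Keeping its sign, it ranged between genotypes from 0.0034 to 0.24 at E11 and from 0.14 (minimum of 5 FPKM) to 0.49 at E14, and between stages from 0.035 (upper quartile) to 0.57 in CTL and from 0.076 to 0.35 in *Stat3* cKO. At E11, 0 members were 2-fold lower in *Stat3* cKO with a pseudocount of 1 or a threshold of 3. At E14, 2 were higher at a threshold of 1.5. In the CTL stage comparison 4 members were lower under each of the 3 scalings and at a threshold of 1.5, and 1 with a pseudocount of 1, a minimum of 5 FPKM or a threshold of 3. In the *Stat3* cKO stage comparison 4 were lower under summed scaling, and 1 with either pseudocount, a minimum of 5 FPKM or a threshold of 3. The other counts stayed within 1.5 times. The cause of these shifts was not tested, apart from the smaller set of 8 members left by a minimum of 5 FPKM.

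Leaving out a library would leave a group empty. No paired analysis was run. The groups share a single replicate number, so replicate number gives no pairs. Each stage has a CTL and a *Stat3* cKO library, which form a pair, but no fit blocked by stage was run. Its only residual is the difference of the genotype effect between stages, which is itself a result. Without replicates or fragment counts, the error of a value is unknown, and it matters most for *Nfic* and *Nfix*, which had values under 1 FPKM. Stage goes together with the loss of mesenchymal transcripts. Genotype at E14 and stage in *Stat3* cKO both go together with sex-linked transcripts.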
